A study of Homo sapiens with 6 samples.

Results

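The IL-6 and gp130 family was described here by 10 genes, the ligands IL6, LIF, OSM, IL11, CLCF1 and CTF1 and the receptor subunits IL6R, IL6ST, LIFR and OSMR. They were taken by gene symbol through the Ensembl identifier from the 63677 genes of the count table, and all 10 were found on primary chromosomes. RNA-Seq had been performed on RPMI8226, a human multiple myeloma (MM) cell line with the genotype given as wild type, after 6 hr with 100 nM GST-PTR1 (3 libraries) or 100 nM GST (3 libraries). GST-PTR1 is a bacterially made fusion of glutathione-S-transferase with the domain PTR1 of HAPLN1, a protein of the extracellular matrix, and GST alone was the negative control. Both groups are the same cell line in culture, so no stromal or immune cells were part of the model.

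Ligands of this family act through gp130, the signal-transducing subunit encoded by IL6ST, which pairs with a receptor subunit that decides which ligand is bound. IL-6 binds IL6R, LIF binds LIFR, and OSM binds LIFR or OSMR, and the bound complexes activate JAK kinases and then STAT3, which turns on SOCS3, an inhibitor of the same complexes. In multiple myeloma, IL-6 is known as a growth and survival factor for the plasma cells, supplied largely by stromal cells of the bone marrow and in some cases by the tumor cells themselves.

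Of the 6 members that could be tested, the ligand genes IL6 and LIF and the ligand-binding receptor gene IL6R were higher after GST-PTR1. None was called lower. Over all genes tested, 9.15% were called higher and 11.4% lower. IL6 went from a total of 2 counts with GST to a total of 507 with GST-PTR1. LIF rose from 1.67 ± 0.0659 to 90.6 ± 12.2 CPM (counts scaled to a common library total; SD, n = 3 each), and IL6R rose by 0.60 on the log2 scale. The shared subunit IL6ST stood at 16.2 ± 1.92 and 15.6 ± 0.798 RPKM (CPM per kilobase of exon; SD, n = 3 each) and was not called. LIFR and OSMR, the other partners of gp130 among the members, were at 0 counts in every library except for 1 count of LIFR.

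IL6R and IL6ST are the abundant receptor genes, and IL6 was called higher from the limit of detection in the control cells. For this reason the upstream sequences of IL6, IL6R and IL6ST are shown. Each is the 250 bases before the RefSeq transcription start on GRCh38.p14, printed 5′ to 3′ on the strand of the gene, with matches to 4 searched motifs in capitals. The IL6 window is chr7:22726950-22727199 on the plus strand, the IL6R window is chr1:154405093-154405342 on the plus strand, and the IL6ST window is chr5:55994964-55995213 on the minus strand.
IL6: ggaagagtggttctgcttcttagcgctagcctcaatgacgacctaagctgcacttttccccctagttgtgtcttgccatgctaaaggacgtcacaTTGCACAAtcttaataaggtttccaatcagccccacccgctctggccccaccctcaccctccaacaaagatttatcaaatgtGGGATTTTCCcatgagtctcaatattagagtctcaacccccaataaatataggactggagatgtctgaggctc
IL6R: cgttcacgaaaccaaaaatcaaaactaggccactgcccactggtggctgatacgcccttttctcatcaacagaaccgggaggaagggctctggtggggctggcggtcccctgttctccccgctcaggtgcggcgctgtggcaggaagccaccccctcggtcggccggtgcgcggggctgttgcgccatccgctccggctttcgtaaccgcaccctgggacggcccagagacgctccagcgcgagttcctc
IL6ST: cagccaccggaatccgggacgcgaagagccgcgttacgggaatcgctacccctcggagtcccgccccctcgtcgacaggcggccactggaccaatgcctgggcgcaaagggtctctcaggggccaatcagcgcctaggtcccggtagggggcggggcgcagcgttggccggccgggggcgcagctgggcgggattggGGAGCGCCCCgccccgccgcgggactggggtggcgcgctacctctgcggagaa

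The motifs were κB (the site of NF-κB, searched by its consensus), C/EBP (TTGCNNAA), AP-1 (TGANTCA) and STAT (TTCNNNGAA), each read on both strands. In the IL6 window the capitals mark a C/EBP match from 155 to 148 bases upstream of the start and a κB match from 73 to 64 bases upstream, without overlap. IL6R held no match, and IL6ST held a κB match on the opposite strand from 53 to 44 bases upstream. Of 35116 RefSeq windows of this length, 9.96% held the κB letters, 9.05% the C/EBP letters, 6.57% the AP-1 letters and 6.57% the STAT letters, so a match in a single window is a common event and is given as a description. Promoter windows were found for 6 of the 10 members (8 windows). LIF, OSM, CLCF1 and CTF1 had no entry. In the windows not printed, IL11 held an AP-1 match from 96 to 90 bases upstream, OSMR a C/EBP match from 73 to 66 bases upstream, and the LIFR windows matches to STAT and C/EBP. The IL6 window had a GC content of 47.6%, against 65.2% for IL6R and 73.6% for IL6ST.

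Ordered by total, the GST libraries held 15202503, 20077280 and 23453473 counts and those of GST-PTR1 22874133, 28837431 and 44688737, called the smallest, middle and largest library of a treatment. Values of single libraries are given in this order. With these totals 3 counts, taken as the limit of detection, are worth 0.197, 0.149 and 0.128 CPM in the GST libraries and 0.131, 0.104 and 0.0671 CPM in the GST-PTR1 libraries. Such limits and all counting intervals below cover counting error only. Of 10 genes that mark plasma and myeloma cells, all 10 were expressed, with summed levels of 4285 to 5239 CPM (GST) and 3744 to 4326 CPM (GST-PTR1). The GST-PTR1 range reached lower, and 3 of these genes were called higher and 3 lower, beside 9.15% and 11.4% of all genes tested. Markers of stromal cells, a main source of IL-6 in marrow, summed to 0.263 to 0.554 CPM and 0.555 to 0.743 CPM over 7 genes, with COL1A2, COL3A1, DCN and LUM at 0. Markers of monocytes summed to 3.14 to 4.39 CPM and 5.77 to 10.8 CPM over 7 genes, with FCN1 and CD163 at 0, and 1 of the 2 that could be tested was called higher. Markers of T cells summed to 5.33 to 5.63 CPM and 2.64 to 3.37 CPM over 5 genes, with CD2 at 0, and the 1 gene that could be tested was called lower. The part of the monocyte and T cell markers in the results was not tested. In bulk RNA, fewer cells of a kind and less RNA per cell cannot be told apart.

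Of the 10 members, 6 had enough counts to be tested with edgeR's quasi-likelihood test, and 3 of these 6 (IL6, LIF, IL6R) were called higher at an adjusted p under 0.05, where 9.15% of the 16926 genes tested were called higher. None of the 6 was called lower by edgeR or in any of the 13 other fits, where 11.4% of all genes tested were lower by edgeR, and 1 member (CLCF1) had an unadjusted p under 0.05 in that direction. IL6 passed the filter on low counts through the GST-PTR1 libraries and CLCF1 through the GST libraries, where each was high, so neither count is support for a direction of the family. Of the 6 tested, 3 had every GST-PTR1 library above every GST library on the scaled counts and 1 (CLCF1) had every GST-PTR1 library below. Over all genes tested these shares were 19.2% and 21.2%. CTF1, which was not tested, also lay below without overlap, at 5 counts against 2 in all. The median log2 fold change was 0.53 over the 6 members tested, with a range from −0.78 to 7.20, beside 0.01 over all genes tested. The members that could not be tested, IL11, CTF1, LIFR and OSMR, had at most 7 counts in any library. Scaled by TMM factors (which correct the totals for differences in RNA composition), 44.4% of all calls were higher, but scaled by library totals alone, 19.7% were, and the latter moves the median over all genes by −0.20 on the log2 scale. The 3 members stayed called with either scaling.

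**Figure D1:**
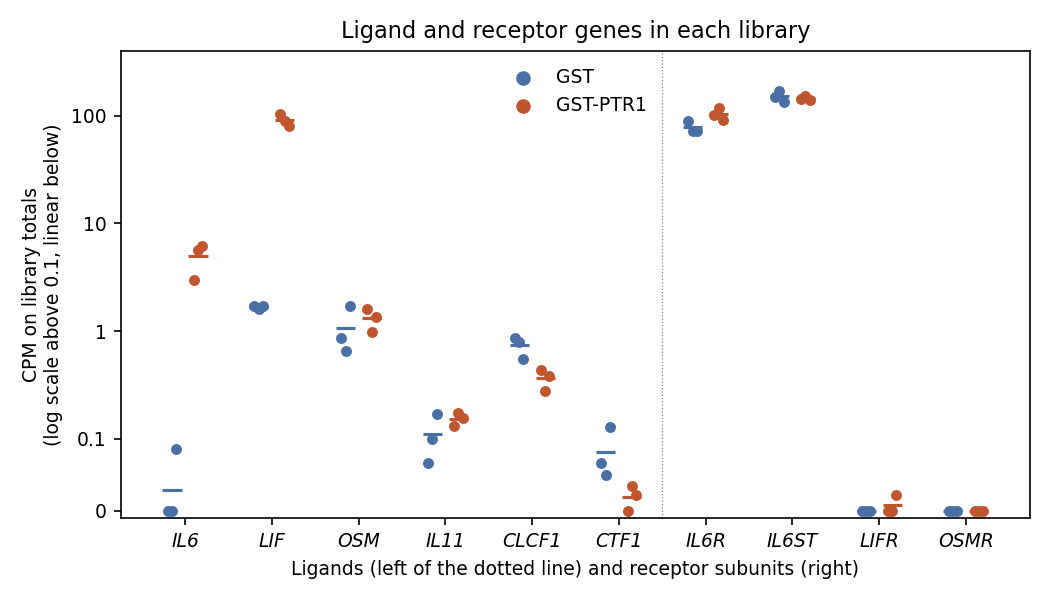
Level of each member in each library, in CPM on library totals (vertical axis, log scale above 0.1 and linear below), for GST (blue) and GST-PTR1 (orange), with ligands left of the dotted line and receptor subunits right of it. Points are libraries and short lines are means. IL6 and LIF separate widely between treatments, and LIFR and OSMR lie at or near 0. IL6R and IL6ST lie at similar heights on this scale, though every GST-PTR1 point of IL6R is above every GST point.

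IL6 (ENSG00000136244, chromosome 7 from 22765503 to 22771621 on the plus strand of GRCh37) encodes the cytokine that gives the family its name. With GST its counts were 0, 0 and 2, and with GST-PTR1 they were 68, 162 and 277. The control libraries were all at or under the limit of detection and every GST-PTR1 library was far above it. As levels, the GST-PTR1 libraries held 1.10, 2.07 and 2.29 RPKM, a mean of 1.82 ± 0.634 (SD, n = 3), and the library with the fewest counts of IL6 was also the one with the lowest RPKM. The ratio of pooled CPM was 154, with a 95% counting interval of 42.5 to 1279, whose width comes from the 2 control counts. The fitted log2 fold change was 7.20 (SE 0.62, 95% interval 5.83 to 8.58), with an adjusted p of 1.41e-05 by edgeR, and its size depends on the prior count used for near-empty libraries. Without the largest GST library, which holds both control counts, the fit gave 10.10 (adjusted p 0.000564). Even after GST-PTR1, IL6 was a gene of modest level, with 34.1% of the genes tested below it in RPKM, compared with 0.136% in GST.

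LIF (ENSG00000128342, chromosome 22 from 30636436 to 30642840 on the minus strand of GRCh37) encodes leukemia inhibitory factor, a ligand of LIFR and gp130. With GST it had 26, 32 and 40 counts, and with GST-PTR1 it had 2372, 2559 and 3550. In RPKM these were 0.431, 0.402 and 0.430 for GST and 26.1, 22.4 and 20.01 for GST-PTR1. The control libraries were almost equal, and the treated libraries differed among themselves by far less than from the controls. The log2 fold change was 5.95 (SE 0.14, 95% interval 5.63 to 6.26), with an adjusted p of 1.09e-09. By level, LIF moved from rank 15311 to rank 2710 of the 16926 genes tested, which is from 9.54% to 84.0% of the genes lying below it. The RPKM of LIF divided by that of IL6ST in the same library was 0.0262 ± 0.00396 in GST and 1.47 ± 0.206 in GST-PTR1 (SD, n = 3 each), so its transcript went from a small fraction of that of gp130 to above it.

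OSM (ENSG00000099985, chromosome 22 from 30658818 to 30662829 on the minus strand), the gene of oncostatin M, lies 16.0 kb from LIF on the same strand. Its counts were 13, 13 and 40 in GST and 37, 28 and 61 in GST-PTR1. The largest GST library held the highest OSM level of the GST libraries, and the groups overlapped. The log2 fold change of 0.45 (95% interval −0.33 to 1.24) was not called (adjusted p 0.388), and without that GST library it was 1.02 (adjusted p 0.0904). In spite of the closeness of both genes, the ratio of LIF to OSM in RPKM went from 0.970 ± 0.398 to 37.9 ± 9.43 (SD, n = 3 each), with every treated library above every control. Within 100 kb of LIF, 3 genes were tested (OSM, TBC1D10A and SF3A1) and none was called by edgeR, with unadjusted p values of 0.230, 0.426 and 0.662.

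CLCF1 (ENSG00000175505, chromosome 11 from 67131639 to 67141648 on the minus strand) encodes cardiotrophin-like cytokine factor 1, a ligand of the CNTF receptor. It had 13, 16 and 13 counts in GST and 10, 8 and 17 counts in GST-PTR1, or 0.431, 0.401 and 0.279 RPKM against 0.220, 0.140 and 0.192 RPKM. All treated libraries lay below all controls, but the log2 fold change of −0.78 (SE 0.34, 95% interval −1.52 to −0.04) had an unadjusted p of 0.0415 and an adjusted p of 0.126. It was therefore not called. A share of 3.07% of its exon bases also belongs to another gene on the same strand, and reads there were not counted.

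IL11 and CTF1, the genes of interleukin-11 and cardiotrophin-1, were near or under the limit of detection. IL11 (ENSG00000095752, chromosome 19 from 55875757 to 55881831 on the minus strand) had 1, 2 and 4 counts in GST and 3, 5 and 7 in GST-PTR1, a ratio of pooled CPM of 1.31 with a counting interval of 0.501 to 3.79. CTF1 (ENSG00000150281, chromosome 16 from 30907928 to 30914881 on the plus strand) had 1, 1 and 3 counts in GST and 0, 1 and 1 in GST-PTR1. A change in either gene was not detectable at this depth.

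IL6R (ENSG00000160712, chromosome 1 from 154377669 to 154441926 on the plus strand) encodes the subunit that binds IL-6. Its counts were 1362, 1458 and 1699 in GST and 2339, 3378 and 4078 in GST-PTR1, or 14.1, 11.4 and 11.4 RPKM against 16.1, 18.5 and 14.4 RPKM. The treated libraries lay above the controls without overlap, although the lowest treated value was close to the highest control. The log2 fold change was 0.60 (SE 0.12, 95% interval 0.35 to 0.86), with an adjusted p of 0.00425. Scaled by library totals alone it was 0.41 (adjusted p 0.0350).

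IL6ST (ENSG00000134352, chromosome 5 from 55230923 to 55290821 on the minus strand) encodes gp130 itself. Its counts were 2281, 3392 and 3125 in GST and 3261, 4420 and 6213 in GST-PTR1. This is 16.1, 18.2 and 14.3 RPKM against 15.3, 16.5 and 14.96 RPKM, and all treated libraries fell within the range of the controls. The log2 fold change was 0.14 (SE 0.11, 95% interval −0.11 to 0.39, adjusted p 0.405) with TMM scaling and −0.056 with library totals, so its sign depended on the scaling. In each library the RPKM of IL6R was divided by that of IL6ST, which removes the library scaling. The ratio was 0.875, 0.630 and 0.796 in GST and 1.05, 1.12 and 0.962 in GST-PTR1, without overlap and with means of 0.767 ± 0.125 and 1.04 ± 0.0792 (SD, n = 3 each). The exact two-sided permutation test gave p = 0.1 for this ratio, which is the smallest p that 3 libraries against 3 allow.

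**Figure D2:**
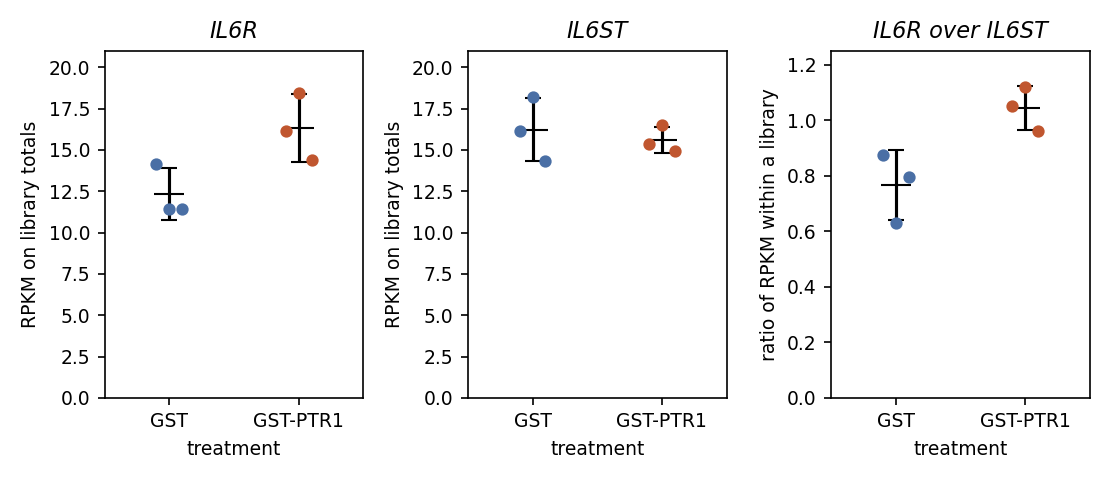
RPKM of IL6R, RPKM of IL6ST and their ratio within a library (vertical axes, from 0) for GST (blue) and GST-PTR1 (orange). Points are libraries and bars are the mean ± SD of 3 libraries. IL6R and the ratio separate between treatments, while the IL6ST points overlap.

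LIFR (ENSG00000113594, chromosome 5 from 38475065 to 38608456 on the minus strand) and OSMR (ENSG00000145623, chromosome 5 from 38845960 to 38945698 on the plus strand) encode the partners of gp130 for LIF and oncostatin M. OSMR had 0 counts in all 6 libraries, and LIFR had 0 counts in all but the largest GST-PTR1 library, which had 1. Over the pooled libraries of a treatment, 0 counts allow up to 0.0511 CPM in GST, and 3 counts are worth 0.0311 CPM in GST-PTR1. LIF was thus among the higher transcripts after GST-PTR1 in cells where the LIFR transcript was not detected beyond 1 count.

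In GST the order of mean levels in RPKM was IL6ST (16.2), IL6R (12.3), OSM (0.506), LIF (0.421), CLCF1 (0.370), CTF1 (0.0488), IL11 (0.0419), IL6 (0.0105), and LIFR with OSMR at 0. Between neighbours in this order, OSM, LIF and CLCF1 did not differ beyond their spread, nor did CTF1, IL11 and IL6, while IL6ST lay above IL6R in every comparison of libraries. In GST-PTR1 the order was LIF (22.8), IL6R (16.3), IL6ST (15.6), IL6 (1.82), OSM (0.623), CLCF1 (0.184), IL11 (0.0576), CTF1 (0.0114), LIFR and OSMR. LIF lay above IL6R in every library, and IL6R and IL6ST did not differ beyond their spread. Tested as single genes on log2(RPKM + 0.1), IL6, LIF, CLCF1, CTF1 and IL6R reached the smallest exact permutation p of 0.1. OSM (0.5), IL11 (0.3) and IL6ST (0.7) did not, nor did the nearly empty LIFR and OSMR. This smallest p is given by groups without overlap. On the TMM-scaled counts, 19.2% of all genes tested lay higher without overlap and 21.2% lower. CTF1 reached it on 5 counts against 2 in all, near the limit of detection.

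**Figure D3:**
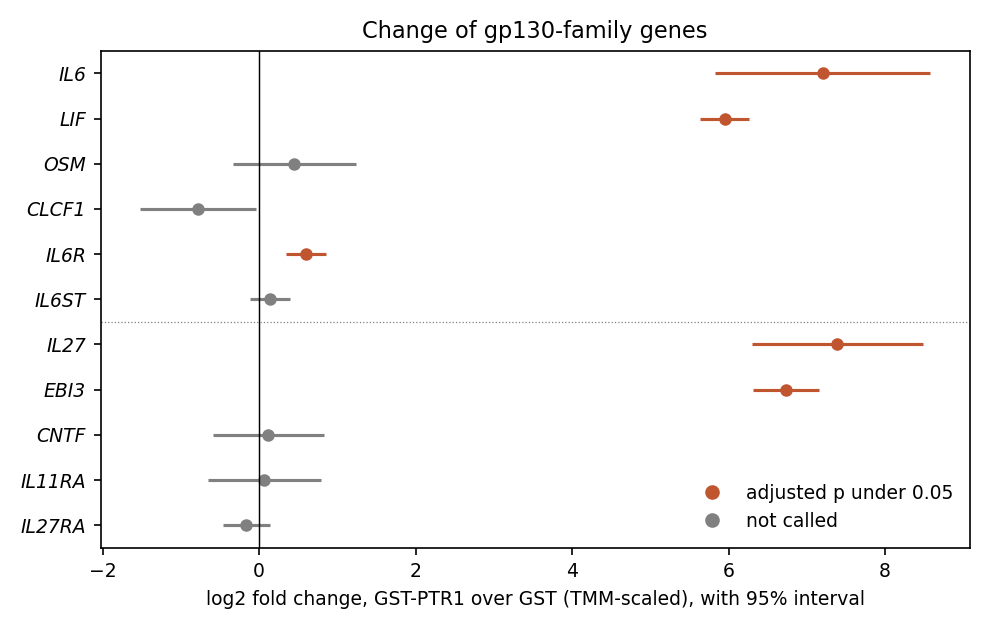
log2 fold change of GST-PTR1 over GST (horizontal axis, TMM-scaled, with 95% intervals) for the 6 members tested (above the dotted line) and 5 further subunit genes tested (below). Orange marks an adjusted p under 0.05. IL6, LIF, IL27 and EBI3 lie between 5.95 and 7.39, IL6R lies at 0.60, CLCF1 at −0.78, and the intervals of the others cross 0.

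Among 9 further genes of gp130-family cytokines and receptors, 6 were tested. The 2 called were both higher, IL27 and EBI3, beside 9.15% higher over all genes tested. Both passed the filter on low counts through the GST-PTR1 libraries, where they were high, so this count supports no direction. IL27 and EBI3 encode the subunits of interleukin-27, a cytokine that signals through gp130 and IL27RA. IL27 had 0, 0 and 1 counts in GST and 66, 94 and 158 counts in GST-PTR1, a ratio of pooled CPM of 194 (95% counting interval 34.5 to 7676) and an edgeR adjusted p of 1.86e-06. EBI3 had 8, 8 and 11 counts in GST and 886, 1363 and 1926 counts in GST-PTR1, a log2 fold change of 6.73 (adjusted p 4.03e-09). Both treated groups lay far above their controls, as for IL6 and LIF. The receptor gene IL27RA had a log2 fold change of −0.16 (adjusted p 0.425), IL11RA of 0.07 and the ligand gene CNTF of 0.12, none called. CNTFR had 0, 0 and 0 counts in GST and 2, 5 and 9 counts in GST-PTR1 and did not pass the filter. IL31 had 5 counts in GST and 2 in GST-PTR1 in all, and IL31RA had none.

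The kinases, STATs and adaptors that carry the gp130 signal numbered 24, all tested, of which 5 were higher, 3 lower and 16 not called, with a median log2 fold change of 0.01. Beside the shares of 9.15% higher and 11.4% lower over all genes tested, the lower count was near the background. STAT3, the main transcription factor of the pathway, rose by 1.62 on the log2 scale (adjusted p 1.46e-06), from 68.7 ± 7.50 to 185 ± 17.1 CPM (SD, n = 3 each). STAT5A rose by 0.94 (adjusted p 0.000936), and PIK3R1, a PI3-kinase regulatory subunit, fell by 0.62 (adjusted p 0.00632). JAK2 and TYK2 were also called higher, and MAPK3 lower. With library totals 3 were higher and 5 lower, and 3 were higher without the largest GST or the middle GST-PTR1 library.

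Of 11 negative regulators of the pathway, 10 were tested, 3 were higher, 2 lower and 5 not called, with a median of 0.02, beside the same 9.15% and 11.4% over all genes tested. SOCS3, which binds gp130 and inhibits JAK kinases, went from 1.30 ± 0.132 to 198 ± 39.2 CPM (SD, n = 3 each), which is 7.44 on the log2 scale (adjusted p 1.09e-09). On the log2 scale SOCS1 rose by 3.47 (adjusted p 2.70e-06) and the phosphatase gene PTPN2 by 0.63 (adjusted p 0.00428). The ubiquitin ligase gene CBL fell by 0.50 (adjusted p 0.0420), and PTPN6 was the other gene called lower. The count of lower calls was 0 to 3 when single libraries were left out: 0 without the smallest GST, the middle GST-PTR1 or the largest GST-PTR1 library, and 1 without the middle or the largest GST library.

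Of 24 genes known as STAT3 targets, all were tested, 18 were higher, 1 lower and 5 not called. Over all genes tested, 9.15% were higher and 11.4% lower. The list median was 1.52, beside 0.01 for all genes tested. After SOCS3, the smallest adjusted p values belonged to JUNB (log2 fold change 3.10, adjusted p 6.56e-08), CEBPD (5.01, adjusted p 7.24e-08) and ICAM1 (2.33, adjusted p 2.10e-07), the first and second encoding transcription factors and the third an adhesion molecule. XBP1, a plasma cell transcription factor, fell by 0.47 (adjusted p 0.0149), a call lost without the largest GST or the middle GST-PTR1 library. Many of these genes, such as ICAM1 and BCL3, are also known targets of NF-κB, and the list does not separate the pathways.

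Of 11 genes for factors known to act at the IL6 promoter, 10 were higher and none lower, beside 9.15% and 11.4% of all genes tested. SP1 was not called, and the list median was 1.63, beside 0.01 for all genes tested. The leading genes were NFKBIZ (log2 fold change 3.56, adjusted p 2.26e-08), which encodes an NF-κB cofactor needed for IL6 transcription in several cell types, CEBPD, IRF1 (1.73, adjusted p 6.98e-07) and NFKB1 (1.84, adjusted p 1.21e-06). RELA was called at the edge (0.35, adjusted p 0.0444) and kept its call in 7 of 13 other fits. Of 10 genes for proteins that control the stability of IL6 and other cytokine mRNAs, 4 were higher and 6 not called. Their median was 0.10, and the same shares over all genes tested stand beside this count. ZC3H12A, which encodes an RNase that degrades IL6 mRNA, rose by 2.81 (adjusted p 7.55e-08), from 16.4 ± 2.55 to 101 ± 8.20 CPM (SD, n = 3 each). ZFP36 (log2 fold change 1.89, adjusted p 1.51e-05) and ZFP36L1 (1.30, adjusted p 0.000162) encode proteins that promote decay, and ARID5A (0.58, adjusted p 0.00501) one that stabilizes IL6 mRNA.

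Receptor shedding, by which IL6R is released from the cell surface, was represented by 5 genes, of which 3 were tested. None was called by edgeR, beside 9.15% higher and 11.4% lower over all genes tested, and 3 genes are too few to compare with these shares. By edgeR, 2 of them (ADAM10 and RHBDF2) had an unadjusted p under 0.05. The proteases ADAM10 and ADAM17 had log2 fold changes of −0.25 (adjusted p 0.104) and 0.23 (adjusted p 0.151), and RHBDF2, a partner of ADAM17, of 0.42 (adjusted p 0.0593). RHBDF2 was called in 6 of 13 other fits, DESeq2 and limma among them, and ADAM10 in 1, on library totals. Several genes stand on more than 1 list (SOCS3, CEBPB, CEBPD, FOS and IRF1). Over all lists together 83 of 89 genes were tested, 37 were higher and 6 lower, beside 9.15% and 11.4% of all genes tested. The higher count includes IL27 and EBI3, which passed the filter through the GST-PTR1 libraries. Passage through the filter was not looked up for genes of the other lists.

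**Figure D4:**
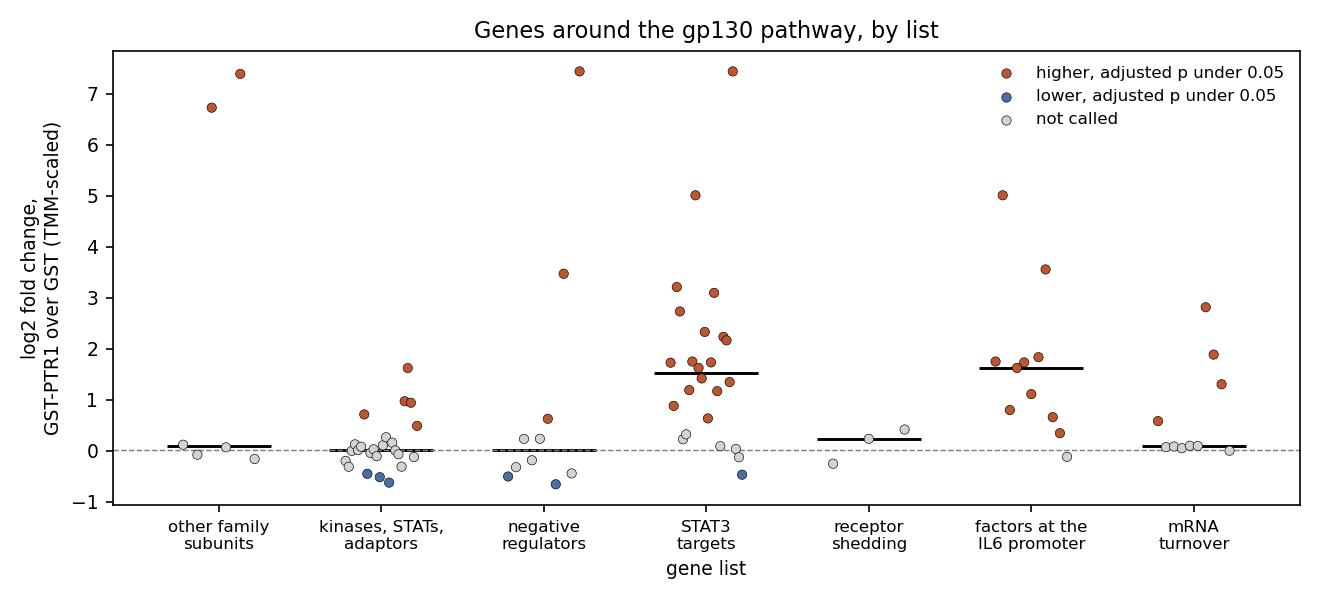
log2 fold change of GST-PTR1 over GST (vertical axis, TMM-scaled) for each gene tested of 7 lists around the gp130 pathway. Points are genes, orange called higher, blue called lower and grey not called, black lines are list medians and the dashed line is the median of all genes tested. The medians of the STAT3 targets and of the factors at the IL6 promoter lie at 1.52 and 1.63, and those of the other lists at 0.23 or less.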

How the data were processed

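RNA-Seq reads of 6 libraries were counted per gene by the authors and deposited as whole-number counts. Per the file headers, featureCounts 1.5.0-p1 counted reads singly and by strand on exons of Ensembl release 75 (GRCh37), and reads with several alignments or several genes were not counted. The submitters' processing notes also name FastQC, Subread and limma. The aligner version is not given in the sources used here. Columns were matched to a treatment by name, but not to a replicate number of the labels (2 of the column numbers occur in both treatments).

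From the counts, CPM and RPKM were computed on library totals with the deposited exon lengths. All genes passing filterByExpr (16926) were fitted with edgeR 4.0.16 (R 4.3.3; TMM factors, glmQLFit and glmQLFTest, Benjamini-Hochberg over all genes tested), and a gene was called at an adjusted p under 0.05. All adjusted p values come from this fit unless another is named. Fold changes (log2) use totals scaled by TMM. Replicates were not near-identical (chi-square per gene of 7.66 to 41.5 between libraries of a treatment). Symbols were given to 52181 genes, and 5904 genes off the primary chromosomes had 0 counts. The fit was tested on simulated data.

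The named genes were the 10 members, up to 4 genes with the smallest adjusted p among those called on each list, all further gp130-family subunits, tested genes within 100 kb, and the 3 genes nearest in pattern to LIF and to IL6R, except a few genes that are not reported here. A few others were named after their values were seen: JAK2, TYK2, MAPK3, PTPN6, XBP1, BCL3, RELA, SP1, ADAM10, ADAM17 and RHBDF2. Members and lists were chosen with earlier results of these data known. Other fits used DESeq2 1.42.0 (size factors, Wald test), limma 3.58.1 (voom), library totals, other filters, thinned counts and each library left out. Promoter sequences are RefSeq's (GRCh38.p14), a different build from the gene positions.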

Additional observations from a re-analysis of the deposited data

How the results depend on the processing

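The numbers in the column names are not the replicate numbers given in the labels, but 2 of them occur in both treatments. A replicate block on these numbers, chosen after seeing the data, had 1 residual degree of freedom and called 1569 genes higher and 1680 lower, with the same side of the threshold for all 6 members tested. Deviations from the treatment means correlated at −0.028 and 0.253 over genes in the libraries sharing a number, so a shared origin was not shown. The 3 members called stayed 3 in every other fit except with at least 10 counts required in every library, where IL6 was not tested and 2 remained. Of the members, IL6ST changed sign, with a log2 fold change of −0.056 on library totals, while the further subunit genes CNTF and IL11RA, which were not called, changed sign in 2 and 4 of 13 fits. Over all genes, 2608 were higher when any gene with a count was tested (31617 genes), and on library totals 927 were higher and 3788 lower. In that scaling 10 genes of the pathway lists were lower. Leaving out single libraries gave 1179 to 1818 lower genes over all and 3 to 7 lower genes of the lists. Depth limits IL11, CTF1, LIFR and OSMR, and 2 control counts limit the size of the IL6 change.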

Other observations

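The 3 genes whose log2 CPM, less the control mean, lay nearest to that of LIF over the 6 libraries were NOS2 (root mean square difference 0.248), the gene of inducible nitric oxide synthase, TNFSF9 (0.251), the gene of 4-1BB ligand, and LINC02605 (0.299). TNFSF9 had 16, 14 and 17 counts in GST and 1221, 1585 and 2381 in GST-PTR1, and NOS2 had 0, 1 and 0 counts in GST and 127, 138 and 193 in GST-PTR1. The fitted log2 fold change was 7.96 for NOS2 and 6.25 for TNFSF9, beside 5.95 for LIF. With a prior count of 0.5 in place of 2 the nearest were LCN2, IL36G and TNFSF9, so 1 of 3 was shared. LCN2 and IL36G had 0 counts in every GST library, so nearness to LIF depends on the prior count. For IL6R the nearest were PBXIP1 (0.0435), SERTAD2 (0.0470) and TSPOAP1-AS1 (0.05003), of which 2 were shared with the other prior count.

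Of 40 genes tested within 100 kb of a member, members left out, 1 was higher and 5 were lower, beside 9.15% and 11.4% over all genes tested, so the lower count was near the background. The higher gene was STEAP1B, 93.0 kb from IL6, which went from 1.42 ± 0.0850 to 4.77 ± 0.400 CPM (SD, n = 3 each), or by 1.95 on the log2 scale (edgeR adjusted p 4.91e-05). The lower genes were SSH3 and TMEM134 near CLCF1, ORAI3 and HSD3B7 near CTF1, and ATP8B2 near IL6R, the last with a log2 fold change of −1.001. On the strand opposite IL6ST, within its span, ENSG00000264281 (chromosome 5 from 55240458 to 55240856 on GRCh37) had a mean of 317 CPM in GST and 392 CPM in GST-PTR1 and was not called (0.51, adjusted p 0.0596).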
